A study of Mus musculus with 20 samples.

Results

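The genes described are 8 regulators and carriers of cholesterol: Srebf1, Srebf2, Scap, Insig1, Insig2, Stard4, Npc1 and Abca1. Their members on the array were all probe sets that the platform annotation ties to one of these symbols alone, current or former. This gave 13 probe sets for 7 of the 8 genes, out of 22626 probe sets in all: 3 each for Insig2 and Abca1, 2 each for Srebf2 and Stard4, and 1 each for Srebf1, Scap and Npc1. No probe set carried Insig1 as its symbol, so Insig1 was not analysed here. The question was whether sterol sensors, carriers and the efflux pump shift between genotypes in the directions known for cells short of sterol.

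The samples were primary mouse embryonic fibroblasts, connective tissue cells cultured from embryos of 13.5 days, with total RNA from 1 culture on each 1-colour Affymetrix array. The wild type group was 10 cultures of 3 embryos (3, 3 and 4), and the E2F4 null group 10 cultures of 5 embryos (2 each). E2F4 is a transcription factor that acts with pocket proteins on cell cycle promoters. The labels name no E2F4 allele, strain, sex, litter, passage, medium, serum or batch. The embryo was the replicate, and n counts embryos. Values are MAS5 signals on a linear scale, and depth in reads does not apply; the number of arrays limits the precision. Differences are E2F4 null minus wild type on log2(signal + 16), which understates the change of dim probe sets.

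Cholesterol supply is controlled by feedback. SREBP-2 (Srebf2) and SREBP-1 (Srebf1) are made as membrane proteins of the endoplasmic reticulum and held there by INSIG proteins through their escort SCAP. When sterol is low, SCAP carries them to the Golgi, where proteases release a part that enters the nucleus and switches on genes of sterol and fatty acid synthesis and of lipoprotein uptake. When sterol is high, oxysterols act on the LXR receptors, which switch on efflux through ABCA1 and also the Srebf1 gene. Much of this control acts on protein processing, which mRNA signals do not show. In textbook low sterol, SREBP-2 targets such as Insig1, Stard4, Npc1 and Srebf2 itself rise and the LXR target Abca1 falls. Srebf1 is also an LXR target, but its 1 probe set is not shown to tell its transcripts apart. Its direction is therefore less certain.

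Sequences of the transcription factor gene and of the efflux gene are shown because these lie on opposite sides of this feedback. They are the 250 bases before the RefSeq transcription start (GRCm38.p6), in the direction of the gene. Srebf2 is on the plus strand, chr15:82147019-82147268, and Abca1 on the minus strand, chr4:53159896-53160145. Capitals mark matches, on either strand, to a CCAAT box (CCAAT), a GC box (GGGCGG), an E-box (CACGTG) or an E2F site (TTTNNCGC).
Srebf2: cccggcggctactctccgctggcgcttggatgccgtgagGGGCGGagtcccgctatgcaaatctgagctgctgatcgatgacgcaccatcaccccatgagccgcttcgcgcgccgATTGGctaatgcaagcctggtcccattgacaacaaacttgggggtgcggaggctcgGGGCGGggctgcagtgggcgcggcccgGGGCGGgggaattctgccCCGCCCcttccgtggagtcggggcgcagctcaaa
Abca1: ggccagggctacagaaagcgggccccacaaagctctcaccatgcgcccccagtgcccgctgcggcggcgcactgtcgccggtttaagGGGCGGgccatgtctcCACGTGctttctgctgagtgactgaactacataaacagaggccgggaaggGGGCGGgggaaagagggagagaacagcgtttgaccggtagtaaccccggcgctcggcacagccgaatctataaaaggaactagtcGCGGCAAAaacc
In Srebf2 the CCAAT box began 135 bases before the start and GC boxes 211, 79, 52 and 34 bases before it. In Abca1 the GC boxes began 163 and 97 bases before the start, the E-box 147 and the E2F match 12. Of 32851 RefSeq windows of this length, 33.8% held a CCAAT box, 32.7% a GC box, 6.02% an E-box and 4.28% an E2F match. The letters TCACNCCAC, used for the sterol response element, were in 1.05% of all windows and in 0 of the 11 windows of the 6 members whose promoters were searched. Only these exact letters, with N as any base, were counted, so a window without a match may still hold a variant of the element. No matches overlap in the printed windows. A match describes the letters only.

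Srebf2 also hosts miR-33, which is known to repress Abca1. Its mature strand lies at chr15:82198127-82198147 on the plus strand, within the gene, and is shown with the seed (bases 2 to 8) in capitals. It was not measured on these arrays.
mmu-miR-33-5p: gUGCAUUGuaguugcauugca

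None of the 7 measured genes and none of the 13 probe sets differed between genotypes at a Benjamini-Hochberg adjusted p under 0.05 (limma on embryo means). Across all genes tested, 1 of 7436 was called, or 0.0134%, and of all probe sets 0 of 22626, or 0%. Before adjustment 0 of the 7 genes and 0 of the 13 probe sets had a limma p under 0.05, where 649 genes (8.73%) and 1606 probe sets (7.10%) did. The embryo groups overlapped for all 13 probe sets, while 495 of all genes (6.66%; null above in 2.95%, below in 3.71%) and 1170 probe sets (5.17%; null above in 2.56%, below in 2.61%) had groups apart. Among the 7 genes, 4 lay above 0 and 3 below, with a median difference of 0.08 (log2); over all genes 48.9% lay above 0, with a median of 0.00.

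**Figure D1:**
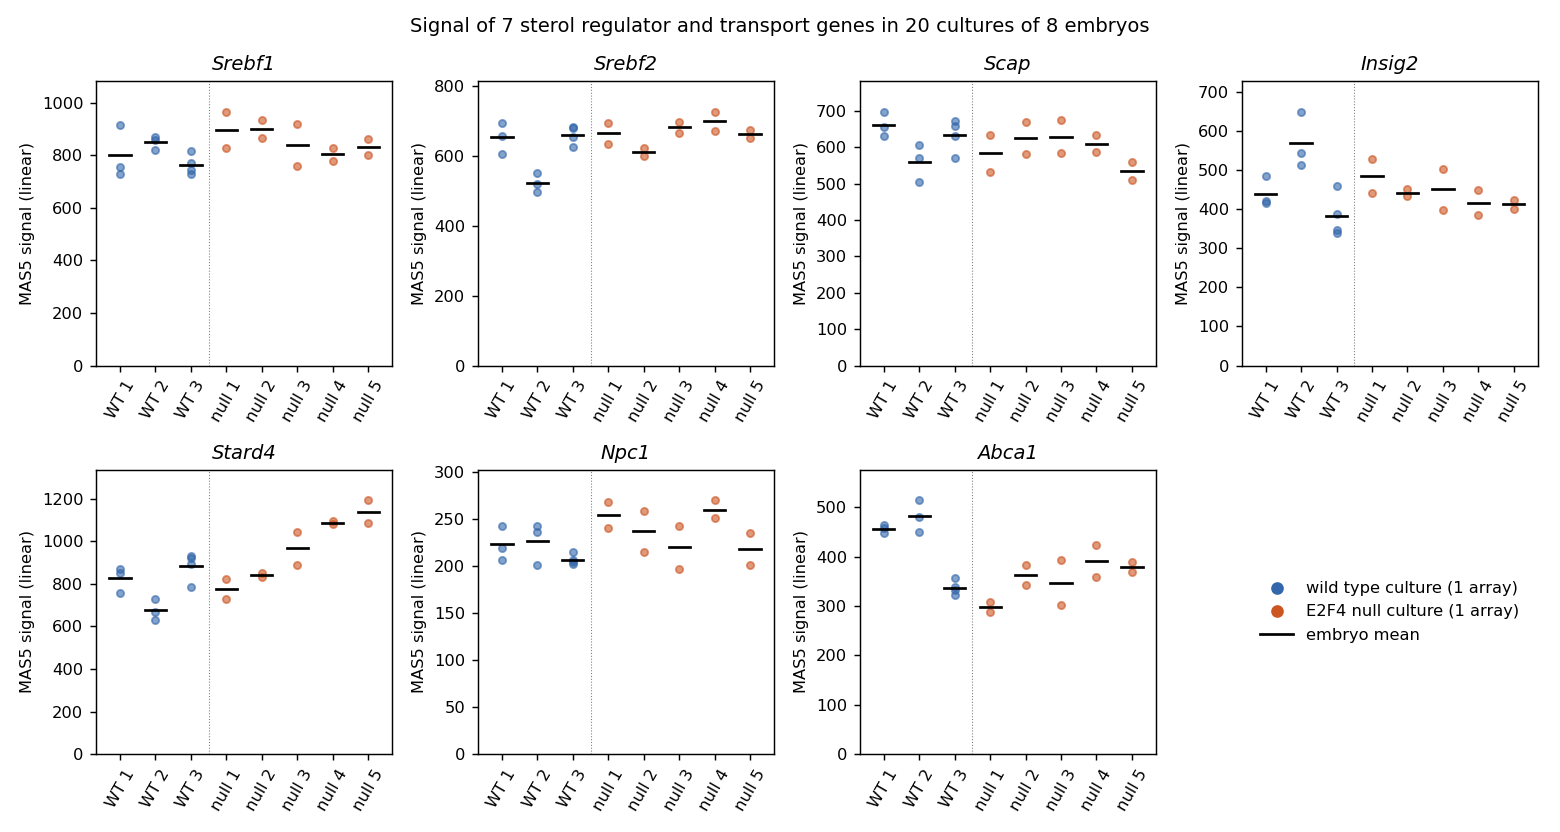
MAS5 signal (linear axis from 0) of each gene's brightest probe set in every culture, by embryo, with wild type (WT) in blue, E2F4 null in orange and the embryo mean as a bar. The groups overlap in every panel, and WT 2 is the lowest embryo for Srebf2 and Stard4 and the highest for Insig2 and Abca1.

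Srebf2 encodes SREBP-2, the main activator of cholesterol synthesis genes. Its brighter probe set gave embryo means of 652, 522 and 660 in wild type and 664, 609, 681, 698 and 662 in the null. Wild type embryo 2 was below all others, and the other wild type embryos lay among the null ones. The means were 611 ± 77.2 (SD, n = 3) and 663 ± 33.5 (n = 5), a difference of 0.12 (log2, 95% interval -0.08 to 0.32; limma adjusted p = 0.732). Without wild type embryo 2 the difference was 0.01 (limma adjusted p = 0.958). The other probe set had 543 ± 49.6 (n = 3) and 536 ± 14.1 (n = 5), a difference of -0.01 (interval -0.18 to 0.16).

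Srebf1 encodes the SREBP-1 proteins, which act mostly on fatty acid genes. Embryo means were 802, 850 and 764 in wild type and 897, 901, 839, 804 and 833 in the null. The highest 2 were null embryos 1 and 2, and the rest were mixed. The group means were 805 ± 43.0 (SD, n = 3) and 855 ± 42.5 (n = 5). They differed by 0.08 (log2, SE 0.07, interval -0.07 to 0.23; limma adjusted p = 0.747).

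Scap, the sterol-sensing escort of both SREBPs, gave 662, 559 and 633 in wild type embryos and 583, 625, 629, 610 and 535 in null embryos. The lowest mean was that of null embryo 5 and the highest that of wild type embryo 1. Null minus wild type came to -0.05 (log2, SE 0.08, interval -0.23 to 0.14; limma adjusted p = 0.889).

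Insig2, which retains SCAP in the endoplasmic reticulum and is not itself an SREBP-2 target in most cells, had 3 probe sets. The brightest gave 440, 569 and 383 in wild type and 486, 442, 451, 416 and 413 in the null. Wild type embryos held both the highest and the lowest value, and the 5 null embryos lay between them. The difference was -0.05 (log2, SE 0.12, interval -0.32 to 0.22; limma adjusted p = 0.923), and it was 0.10 without wild type embryo 2. The other probe sets differed by -0.01 (interval -0.20 to 0.18) and 0.13 (interval -0.07 to 0.33), with null means of 438 and 296.

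Stard4, a cytosolic carrier that moves sterol between membranes and is a known SREBP-2 target, had the largest positive difference of the 7 genes. Embryo means of its brighter probe set were 826, 676 and 883 in wild type and 777, 843, 967, 1088 and 1140 in the null. Null embryos 3, 4 and 5 lay above all wild type embryos, and null embryos 1 and 2 among them. Over cultures the lowest, median and highest signals were 629, 818 and 929 in wild type and 729, 966 and 1193 in the null. The means were 795 ± 107 (SD, n = 3) and 963 ± 155 (n = 5), a difference of 0.27 (log2, SE 0.14, interval -0.05 to 0.59). Its limma p was 0.0903 before and 0.647 after adjustment, and the exact permutation of embryo labels gave p = 0.161. Without wild type embryo 2 it was 0.16 (limma adjusted p = 0.733). Blocking on embryo number, which takes null embryos 4 and 5 out of the comparison, gave 0.12. The other probe set differed by 0.14 (interval -0.11 to 0.39).

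Npc1, the membrane protein that passes lipoprotein cholesterol out of the lysosome, gave 223, 227 and 206 in wild type and 254, 237, 220, 260 and 218 in the null. Null embryos 1, 2 and 4 were above the wild type embryos and null embryos 3 and 5 among them. The difference was 0.11 (log2, SE 0.09, interval -0.09 to 0.31; limma adjusted p = 0.750), from 219 ± 10.8 (SD, n = 3) to 238 ± 19.3 (n = 5).

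Abca1, the pump that exports cholesterol to lipid-poor apolipoproteins and a direct LXR target, had the largest negative difference. Its brightest probe set gave 456, 482 and 337 in wild type embryos and 298, 362, 347, 390 and 379 in null embryos. Wild type embryos 1 and 2 were above every null embryo, and wild type embryo 3 was below all null embryos but the first. Cultures of wild type embryo 3 ran from 322 to 356, those of wild type embryos 1 and 2 from 448 to 463 and 450 to 514, so this embryo's 4 cultures were alike. The means were 425 ± 77.1 (SD, n = 3) and 355 ± 36.1 (n = 5), a difference of -0.24 (log2, SE 0.13, interval -0.53 to 0.05). Its limma p was 0.0937 before and 0.654 after adjustment, and the exact permutation of embryo labels gave p = 0.161. The difference was -0.39 without wild type embryo 3 (limma adjusted p = 0.404) and -0.15 without wild type embryo 2 (limma adjusted p = 0.731). A dimmer probe set differed by -0.31 (interval -0.70 to 0.08) at 84.6 ± 27.5 (n = 3) and 64.5 ± 7.31 (n = 5). The dimmest, at 28.9 and 28.1, differed by -0.01. By their mean over all arrays, both the dimmer and the dimmest probe set lie below the signal of 83.2 used as the filter for genes.

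**Figure D2:**
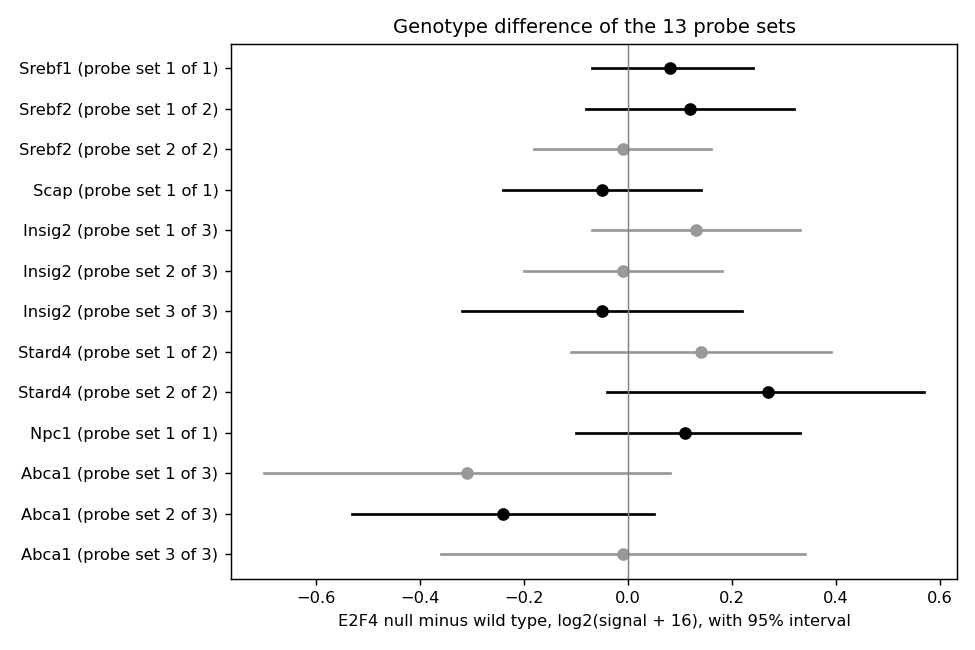
Difference between genotypes of each of the 13 probe sets, null minus wild type on log2(signal + 16), as a point with its 95% interval from limma on 8 embryo means; black marks the brightest probe set of a gene. Every interval includes 0, from the dimmer Abca1 probe set at -0.31 to the brighter Stard4 probe set at 0.27.

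The intervals of the brightest probe sets give the sizes of change that these embryos allow for each. As folds of null over wild type they ran from 0.95 to 1.17 for Srebf1, 0.95 to 1.25 for Srebf2, 0.85 to 1.10 for Scap, 0.80 to 1.16 for Insig2, 0.94 to 1.24 for Npc1, 0.97 to 1.51 for Stard4 and 0.69 to 1.04 for Abca1. Other probe sets of Srebf2, Stard4, Insig2 and Abca1 had intervals that went past these. On the log2 scale they went down to -0.18 for Srebf2 and -0.11 for Stard4, up to 0.33 for Insig2, and down to -0.70 and up to 0.34 for Abca1. Of the directions known for low sterol, the point values of the brightest probe sets of Stard4, Npc1, Srebf2 and Abca1 had that sign. That of Srebf1, whose direction in low sterol is less certain, lay above 0. None of these genes passed the test. The other Srebf2 probe set had a point value of -0.01.

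The other genes of the pathway were counted from lists, beside 48.9% of all genes above 0 and a median of 0.00. Of the 17 sterol synthesis enzymes tested, 15 lay above 0 with a median of 0.37 (log2). None was called, while 12 were higher and 0 lower at an unadjusted limma p under 0.05, where 3.98% of all genes were higher and 4.75% lower. The smallest p belonged to Nsdhl and Lss, enzymes of the later steps, at 0.46 and 0.57 (limma adjusted p = 0.206 and 0.297), and to the isomerase Idi1, which had 2002 in wild type and 2861 in the null, or 0.50 (limma adjusted p = 0.297). Hmgcs1, an early enzyme of the pathway, differed by 0.33 (limma adjusted p = 0.434), and its other probe sets by 0.19 to 0.30.

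All 14 tested fatty acid genes known as SREBP-1 targets lay above 0, with a median of 0.27 and 9 higher at an unadjusted limma p under 0.05 (3.98% of all genes), none called. The fatty acid desaturases Fads1, Scd2 and Scd1 had the smallest p, with differences of 0.38, 0.29 and 0.44 (limma adjusted p = 0.190, 0.210 and 0.222). Without wild type embryo 1 these counts were 12 above 0 and 5 higher, where 202 of all 7436 genes were higher. Some marker lists also lay mostly above 0, with none called. Of 9 macrophage markers 8 did (median 0.32), of 7 proliferation genes 7 (median 0.19) and of the 2 epithelial markers tested 2 (median 0.45). Others did not, with 2 of 4 smooth muscle markers above 0 (median -0.01) and 4 of 11 fibroblast markers (median -0.05). Without wild type embryo 2 the proliferation genes had 2 of 7 above 0 and a median of -0.01, and the synthesis enzymes 17 of 17 and 0.31. In the same setting the macrophage median was 0.48 and the epithelial median 0.75. The macrophage median was 0.45 without null embryo 1, 0.11 without wild type embryo 1 and 0.14 without null embryo 4. There the synthesis enzymes had 0.41, 0.30 and 0.34. The part of these cells and of proliferation in the enzyme values was not tested. The upper bounds of Srebf1, Srebf2, Scap, Insig2 and Npc1 on the log2 scale, 0.23, 0.32, 0.14, 0.22 and 0.31, were below the median of the synthesis enzymes, and that of Stard4, 0.59, above it. The difference between each of these genes and the enzymes was not tested.

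The 7 tested genes of SREBP cleavage and sterol-regulated degradation had a median of -0.01, 2 above 0, and 0 at an unadjusted limma p under 0.05. The site-1 protease Mbtps1, which makes the first cut in SREBPs, differed by -0.10, the ubiquitin ligase adaptor Aup1 by -0.12 and Erlin1 by 0.09. Without wild type embryo 2, 2 of the 7 were lower at an unadjusted limma p under 0.05, where 491 of all 7436 genes were. Of 10 uptake and lysosomal genes 4 lay above 0, with a median of -0.03. Their smallest p belonged to Lrpap1, a chaperone of lipoprotein receptors, at -0.14, the endocytic adaptor Dab2 at 0.20 and the receptor Vldlr at 0.30 (limma adjusted p = 0.591, 0.615 and 0.683). Npc2, the soluble partner of NPC1, differed by -0.11.

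Intracellular transport and storage genes had 5 of 14 above 0 and a median of -0.03, with 2 lower at an unadjusted limma p under 0.05. These were Stard3nl, a late endosome protein, at -0.28 (890 in wild type, 729 in the null; limma adjusted p = 0.392) and the sterol carrier protein Scp2 at -0.16 (limma adjusted p = 0.519). The oxysterol-binding protein family member Osbpl5 followed at -0.25. For Stard3nl alone among these 14 were all null values below all wild type values, as they were for 3.71% of all genes.

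In the efflux and LXR list 4 of 9 tested genes lay above 0, with a median of -0.11. Cyp7b1, an oxysterol hydroxylase, gave group means of 398 ± 177 (SD, n = 3) for wild type against 194 ± 16.7 (n = 5), or -0.87 (log2; limma adjusted p = 0.407). Cyp7b1 embryo means were 505, 194 and 495 in wild type and 170, 187, 191, 213 and 207 in the null. The signal of wild type embryo 2 was thus inside the null range. Dropping this embryo gave a Cyp7b1 difference of -1.30 (limma adjusted p = 0.0059). This was the 1 call in any of these lists or members with an embryo left out. It depends on removing the wild type embryo that resembled the null. Apoe, a lipid carrier of lipoproteins, had 107 ± 32.1 and 164 ± 33.7, a difference of 0.57 (limma adjusted p = 0.472), opposite in sign to Abca1. Rxrb, a partner receptor of LXR, differed by 0.14 (limma adjusted p = 0.754). Mylip, an LXR-induced ubiquitin ligase, differed by -0.19 (limma adjusted p = 0.807). Abcg1, the partner efflux transporter, had 75.1 ± 35.3 and 64.5 ± 21.8 and lay below the filter, with -0.12 in the fit of all probe sets. The LXR-alpha gene Nr1h3 was dim, at 23.4 and 21.7. The median of this list was 0.08 without wild type embryo 2 and 0.01 without wild type embryo 1 or 3.

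**Figure D3:**
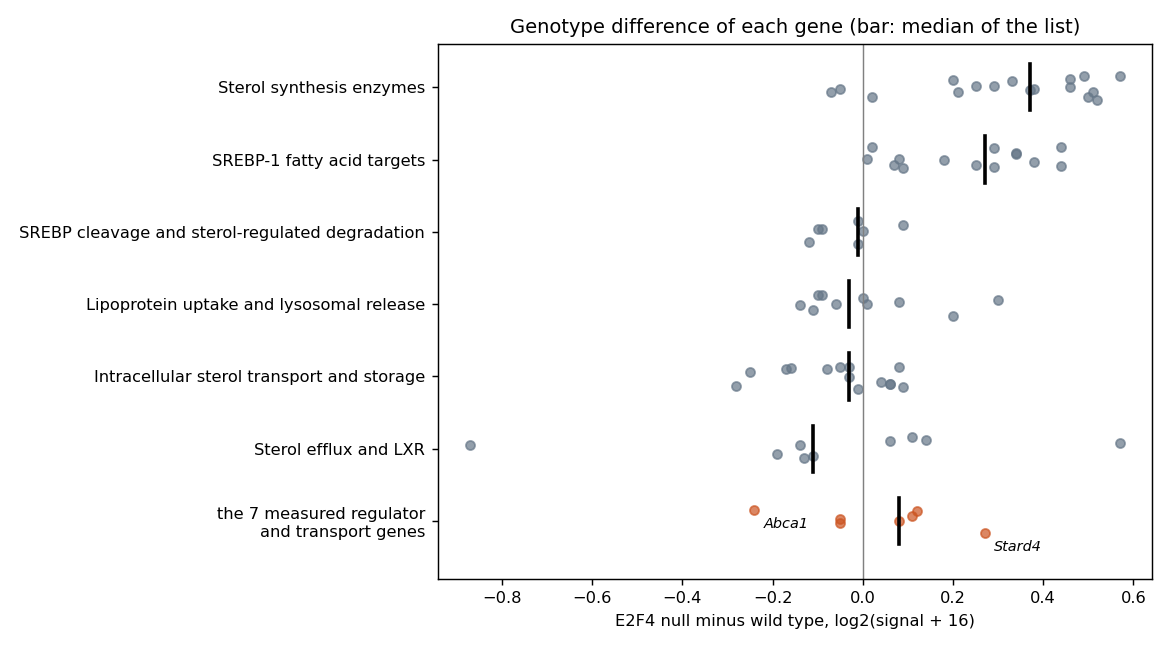
Difference between genotypes of every gene tested in 6 pathway lists and of the 7 measured regulator and transport genes (orange), null minus wild type on log2(signal + 16), with the median of each list as a bar. The medians of synthesis enzymes (0.37) and fatty acid genes (0.27) lie to the right, while the 7 genes run from Abca1 at -0.24 to Stard4 at 0.27 around a median of 0.08.

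Embryos of 1 genotype differed in some of the 7 genes. Within wild type, limma's F test over cultures called Abca1, Insig2, Srebf2 and Stard4 (adjusted p = 1.2e-04, 0.00257, 0.00259 and 0.00330), that is 4 of 7 where 50.1% of all genes were called. Within the null it called Stard4 alone (adjusted p = 0.00379), 1 of 7 where 22.9% of all genes were called. These shares are near the background. The SD of Abca1 between wild type embryos was 0.266 (log2) and between cultures of an embryo 0.064, against medians over all genes of 0.148 and 0.115. Npc1, Srebf1 and Scap had no called difference between embryos in either genotype (adjusted p = 0.0695 to 0.626). The contrast between the genotypes' spreads was not tested.

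Across embryos the brightest probe sets of Srebf2 and Stard4 varied with proliferation genes and that of Insig2 against them. This relation was computed for the brightest probe sets of the 7 genes only. Their other probe sets were not set against proliferation genes, and the share of all genes that would pass is not known. The relation is therefore not shown to be particular to these genes. The 7 measured proliferation genes, such as Mki67 and Top2a, deviated on average by -0.01, -0.56 and 0.24 (log2) in wild type embryos 1, 2 and 3 and by -0.17, -0.14, 0.14, 0.24 and 0.25 in the null embryos. Wild type embryo 2, the lowest by far, was also lowest for Srebf2 and Stard4 and highest for Insig2 in their brightest probe sets. It was also lowest in the other Srebf2 probe set (486) and highest in a second Insig2 probe set (493). In the other Stard4 probe set null embryo 2 was lower (716 against 729). In the remaining Insig2 probe set null embryos 1, 2 and 3 were higher (292, 311 and 312 against 287). Over 8 embryos the correlation with the mean of these proliferation genes was r = 0.89 for Stard4 (exact permutation p = 0.00176, adjusted over 7 relations 0.00616, and rho = 0.90, p = 0.00456, adjusted 0.0160). For Insig2 it was -0.93 (exact permutation p = 0.00107, adjusted 0.00616; rho = -0.90, p = 0.00456, adjusted 0.0160). For Srebf2 it was 0.88 (exact permutation p = 0.0105, adjusted 0.0245), but its rho of 0.48 did not pass (exact permutation p = 0.243, adjusted 0.340).

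Without the embryos farthest from the median, wild type 2 and null 1, r was 0.74 for Stard4, -0.68 for Insig2 and 0.81 for Srebf2. Without wild type embryo 2 alone the adjusted exact permutation p was 0.111, 0.111 and 0.239, so all 3 calls rest in part on that embryo. For Srebf2 the call did not hold either on leaving out W1, N2 or N4, that is wild type embryo 1 and the null embryos 2 and 4 in turn (adjusted exact permutation p = 0.0579, 0.0824 and 0.0546). With each genotype centred on its own mean r was 0.90, -0.94 and 0.88. The relation to proliferation genes was added after the values were seen. The remaining 4 genes gave no call (exact permutation adjusted p = 0.257 to 0.689). Among them Srebf1 had r = -0.56 and rho = -0.67, and -0.93 with each genotype centred, while Abca1 had r = -0.40 and -0.28 centred.

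The same 7 genes were set against the mean of the sterol synthesis enzymes, the textbook targets of SREBP-2. That mean deviated by -0.29, -0.14 and -0.17 (log2) in wild type embryos 1 to 3 and by 0.04, -0.07, 0.14, 0.21 and 0.29 in null embryos 1 to 5. Stard4 had r = 0.75 over the 8 embryos (exact permutation p = 0.0340, adjusted over 7 relations 0.238, and rho = 0.69, p = 0.0694, adjusted 0.224). Its r was 0.72 without wild type embryo 1 and null embryo 5, the embryos farthest from the median. With each genotype centred on its own mean it was 0.62. Srebf2 had r = 0.46 (exact permutation p = 0.260, adjusted 0.603; rho = 0.67, p = 0.0831, adjusted 0.224) and 0.13 with each genotype centred. None of the 7 relations passed after adjustment. Null embryos 3, 4 and 5 were the highest for Stard4, for the synthesis enzymes and, with wild type embryo 3, for the proliferation genes.

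**Figure D4:**
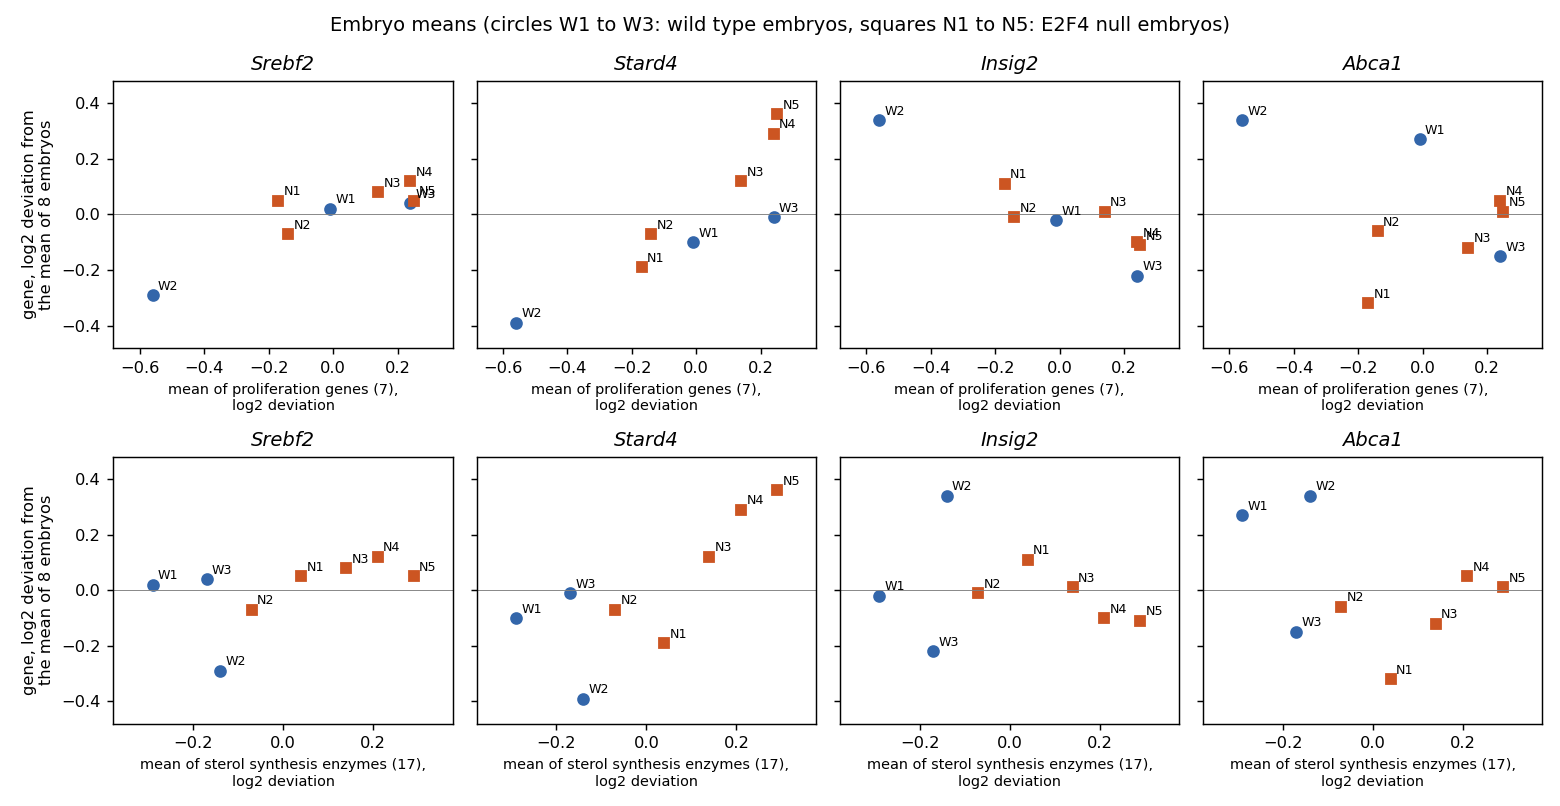
Embryo means of the brightest probe sets of Srebf2, Stard4, Insig2 and Abca1 (vertical, log2 deviation from the mean of 8 embryos) against the mean of 7 proliferation genes (top) and of 17 sterol synthesis enzymes (bottom). Circles are wild type and squares null embryos. Stard4 and Srebf2 rise and Insig2 falls from W2, at -0.56, towards W3, N4 and N5 in the top panels, and the points scatter more in the bottom ones.

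The genes most like each member over the log2 values of all 20 arrays, which share embryos, were Kif20a (r = 0.909), Blm (0.904) and Slc1a5 (0.901) for Srebf2. Kif20a is a mitotic kinesin, Blm a DNA helicase and Slc1a5 a glutamine transporter. For Stard4 they were Mrps22 (r = 0.890), Rpp30 (0.887) and Ruvbl1 (0.881), and for Insig2 they were Tor1aip2 (0.901), Pcmtd2 (0.876) and Tnip1 (0.853). Abca1 was nearest to Hes1 (r = 0.813), Ndrg4 and Grem1 (0.788), Npc1 to Pex26 (0.825), Brox (0.755) and Lsm1 (0.713), Scap to Fkbp8 (0.828), Ogt (0.798) and Dus1l (0.793), and Srebf1 to Plekha4 (0.743), Des (0.716) and Mia3 (0.716). Srebf2 had 169 genes with r above 0.8 and Stard4 98, while Srebf1 had 0 and Npc1 and Scap 1 each.

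Across the series the trimmed mean signal was 500.2 throughout, cultures of 1 embryo correlated at r = 0.988 to 0.994 and those of different embryos at 0.948 to 0.991, and each of the 20 arrays was closest to another of its own embryo. E2f4, the targeted gene, gave 214 ± 6.47 (SD, n = 3) for wild type against 166 ± 17.6 (n = 5) for null embryos (limma adjusted p = 0.363); the labels do not say which part was removed, so its 1 probe set checks little. All 11 fibroblast markers were above the filter. Of 10 macrophage markers, cells known for high ABCA1, 9 were above it with Ptprc at 52.6, and their summed signal ran from 1825 to 2960 in wild type and 1495 to 4885 in null embryos. It was highest in null embryo 4. The 9 markers above the filter deviated on average by -0.34, 0.28 and -0.38 (log2) in wild type embryos 1 to 3. In null embryos 1 to 5 they deviated by -0.56, 0.08, 0.05, 0.78 and 0.09. The part of macrophages in the Abca1 values was not tested. Of 6 measured adipocyte markers 3 were above the filter (Lpl at 275, Fabp4 at 218 and Cebpa at 85.7), with Adipoq at 6.31. Of 5 epithelial markers 2 were above it (Krt19 at 286 and Krt18 at 136), with Epcam at 5.60, and Krt19 and Krt18 differed by 0.51 and 0.38 between genotypes. In such bulk cultures fewer cells of a type and less RNA per cell cannot be told apart.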

How the data were processed

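The deposited values are MAS5 signal intensities, 1 per probe set and array, per the submitters' processing notes and the values themselves; its version and scaling target were not given in the sources used here. Each array had a 2% trimmed mean of 500.2, a sign of scaling by the authors, which hides a change shared by all genes. The table held 22690 probe sets, 64 of them controls; 20393 had 1 symbol, 691 several and 1555 none listed, and 20364 of those with 1 symbol were matched to a RefSeq gene (GRCm38.p6). Deposited signals were converted to log2(signal + 16) and averaged over the cultures of an embryo. Each gene took its brightest probe set, and those with a mean signal below 83.2 (percentile 40) were left out, leaving 7436 of 12393. The genotype comparison used limma 3.58.1 (R 4.3.3) (trend, two-sided, Benjamini-Hochberg over all genes, or all probe sets without a filter), and embryos by its F test over cultures. Correlations over 8 embryos used exact permutation of pairings, two-sided. The fits were tested on simulated data. The members and lists were chosen with earlier results of these data known. Named genes were all members and E2f4, readouts of sterol level (Hmgcs1, Abcg1 and Mylip among them; others are not reported here), the 3 smallest p of each list and the 3 genes most like each member; Npc2, Nr1h3 and the marker genes are named outside it, after their values were seen. Promoter and miRNA sequences are from RefSeq, and 6 of the 8 genes were searched. The labels give no litters or days, so whether these differed between embryos or genotypes is not known. The p-values measure the spread between these embryos and cannot separate genotype from such factors.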

Additional observations from a re-analysis of the deposited data

How the results depend on the processing

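Over 24 alternatives (23 for Npc1, which fell under a stricter filter) none of the 7 genes passed. Differences kept their sign for Abca1 (-0.39 to -0.15), Npc1 (0.07 to 0.14), Srebf1 (0.05 to 0.12), Srebf2 (0.01 to 0.18) and Stard4 (0.12 to 0.35), and Scap ran from -0.12 to 0.00. Insig2 turned to 0.02 with the mean of all its probe sets, to 0.01 with the embryo number as a block and to 0.10 without wild type embryo 2, against -0.05; leaving out an embryo gave -0.18 to 0.10. The cause was not tested. The exact permutation of embryo labels for single genes, whose smallest p is 0.0179, gave p = 0.161 for Stard4 and Abca1. The count of called genes over the whole table, 1, was 0 with every probe set, 0 for cultures 1 and 2 alone, 0 after blocking on embryo number, 80 with a random block for embryo, 543 with cultures as independent samples and 38 with the culture number as a replicate block, and 0 to 11 with an embryo left out; none of these calls was a member. Same-numbered embryos of the genotypes deviated together at r = 0.09, 0.64 and 0.42 and same-numbered cultures at -0.07 and -0.18. The null embryos nearest to wild type embryos 1, 2 and 3 were N4, N2 and N5. Whether shared numbers pair the samples was not tested. Blocking on the embryo or culture number changed no call of a member. The removal of 2 arrays with outlying controls, chosen after seeing the data, left Stard4 at 0.25 and Abca1 at -0.20.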
